A study of Mus musculus with 4 samples.

Results

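The Cfap genes (cilia and flagella associated proteins) were taken by name. Each identifier present in GENCODE M21 was kept whose mouse symbol, there or in a list of gene names, is Cfap followed by a number. This gave 29 genes of 57010 identifiers. They are a part of the family, as Cfap47, Cfap91, Cfap119 and Cfap251, among others, were not matched under these names. All 29 had enough counts to be tested, among 23023 genes tested. Testis RNA came from male ICR mice, 8 weeks old when bought. The ULA group received busulfan (BUS, 30 mg/kg, 1 intraperitoneal injection), an alkylating agent that kills dividing germ cells, and from 2 weeks later ursolic acid (ULA, 50 mg/kg by gavage daily for 4 weeks), a plant triterpenoid. The BUS group received the same injection and then the vehicle, 5% DMSO in corn oil, so both groups carry the busulfan damage and mice without busulfan were not analysed here. Each group had 2 libraries, and the labels do not tie a library to an animal although the methods speak of biological replicates, so the p-values measure the spread between these libraries, which may be technical.

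Cfap proteins are parts of the axoneme, the microtubule core of motile cilia and of the sperm tail. Most were first found in the flagellum of the alga Chlamydomonas, and their place in the axoneme is often known from that species. The axoneme has a central apparatus built on a pair of single microtubules, radial spokes that reach it from the outer doublet microtubules, dynein arms that slide the doublets, and proteins that line the inside of the doublets. In testis, cells build the tail as spermatids, and many axonemal genes are already transcribed in spermatocytes. Loss of several Cfap genes in mouse or human gives short, coiled or absent sperm tails.

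The promoters are shown first, because the RFX transcription factors that switch on ciliary genes bind a site called the X-box. RefSeq promoter windows (GRCm38.p6, 250 bases before to 50 bases after a start) were matched by symbol for 22 of the 29 genes. An X-box pattern (GTNNCC, then NNN, then GNAAC, searched on both strands) was found in the windows of 5 of these 22 genes (22.7%), against 2.49% of the 27025 genes in the promoter table. These 5 places are printed with 15 bases on each side, read along the transcribed strand, with the match in capitals. They come from the windows chr16:44394549-44394848 (Cfap44, plus strand), chr1:172520880-172521179 (Cfap45, plus), chr2:145934534-145934833 (Cfap61, plus), chr4:34730157-34730456 (Cfap206, minus) and chr16:90934800-90935099 (Cfap298, minus).
Cfap44: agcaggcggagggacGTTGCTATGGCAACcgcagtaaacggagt
Cfap45: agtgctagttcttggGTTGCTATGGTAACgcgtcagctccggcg
Cfap61: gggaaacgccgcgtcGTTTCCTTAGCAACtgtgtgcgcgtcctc
Cfap206: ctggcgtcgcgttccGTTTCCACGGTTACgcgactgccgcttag
Cfap298: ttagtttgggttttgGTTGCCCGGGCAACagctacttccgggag
Cfap44 and Cfap61 rose with ULA, while Cfap45, Cfap206 and Cfap298 did not pass the test, so the pattern was found on both sides of the threshold (2 of 6 genes that rose and have a window, 3 of 16 others). The pattern reads on the printed strand in Cfap61, on the other strand in Cfap44, Cfap45 and Cfap206, and on both in Cfap298. With the first transcribed base as 0, the match began at -27 in Cfap44, -19 in Cfap45, -8 in Cfap61, -23 in Cfap206 and -188 in Cfap298. The whole window of Cfap44 is printed because it is the gene with an X-box pattern and the largest change.
Cfap44: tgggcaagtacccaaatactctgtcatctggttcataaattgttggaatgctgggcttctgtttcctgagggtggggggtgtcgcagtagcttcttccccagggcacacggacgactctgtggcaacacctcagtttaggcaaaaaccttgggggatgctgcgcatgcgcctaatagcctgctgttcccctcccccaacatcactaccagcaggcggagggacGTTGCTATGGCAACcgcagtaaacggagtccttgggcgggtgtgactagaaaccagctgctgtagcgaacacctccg
The shorter RFX core GTTGCC, which can lie inside an X-box, was found in 9 of the 22 genes (40.9%), against 14.1% of all genes. The forkhead pattern TGTTTAC, the kind of site that FOXJ1 binds, was found in Cfap20 and Cfap43 (9.09% of the 22 genes, against 4.05% of all genes). The MYB pattern CAACTG was found in 4 genes (18.2%, against 15.4% of all), and CCAAT in 8 (36.4%, against 41.1% of all). The TATA box letters TATAAA and the CRE letters TGACGTCA were in none of the 22 windows, and in 15.7% and 2.03% of all genes. The patterns were searched on both strands and chosen after earlier results were known. A match describes the letters and does not show that a factor binds there.

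The libraries held 16312898 and 15078828 counts with ULA, and 18147335 and 18216380 with BUS. The share of counts in protein-coding genes was 87.4% and 76.9% with ULA, against 96.9% and 96.3% with BUS. An identifier without a name in the tables used here, ENSMUSG00000119584, took 7.88% and 18.5% of the counts with ULA, against at most 0.00418% with BUS. Counts were scaled by TMM (factors 1.02 and 0.839 for ULA, 1.05 and 1.12 for BUS) and are given as CPM, the count divided by the scaled library total and multiplied by 1000000. In bulk tissue, a difference in the number of cells of a type and a difference in RNA per cell cannot be told apart.

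With ULA, 7 of the 29 Cfap genes rose and 22 stayed outside the threshold (adjusted p under 0.05 from edgeR's quasi-likelihood test with Benjamini-Hochberg adjustment over all genes tested). That is 24.1% of the Cfap genes, where 11.8% of all genes tested rose (2706 genes) and 15.3% fell (3512 genes). The number of Cfap genes that fell was 0 with edgeR, also at an unadjusted p under 0.05, and 0 with DESeq2 and limma-voom. Among protein-coding genes alone, 6.94% rose. Upper-quartile scaling turned the balance of all genes to 4282 higher and 2364 lower (18.6% and 10.3%), and scaling to library size alone gave 1877 and 5031 (8.15% and 21.9%). The 7 genes were Cfap54, Cfap44, Cfap61, Cfap126, Cfap46, Cfap74 and Cfap70. Fitted changes of the 29 ran from a log2 fold change of -0.41 to 1.61, with a median of 0.73 (1.66-fold), against a median of 0.02 over all genes tested. The value was above 0 for 28 of the 29 genes, against 50.9% of all genes tested. Both ULA libraries lay above both BUS libraries for 23 genes (79.3%), a separation that 37.9% of all genes tested had. With an unadjusted p under 0.05 and a fold over 1.5, the threshold named in the study, 17 of the 29 were higher, against 19.4% of all genes tested. The fewest counts of any Cfap gene in any library were 124.

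**Figure D1:**
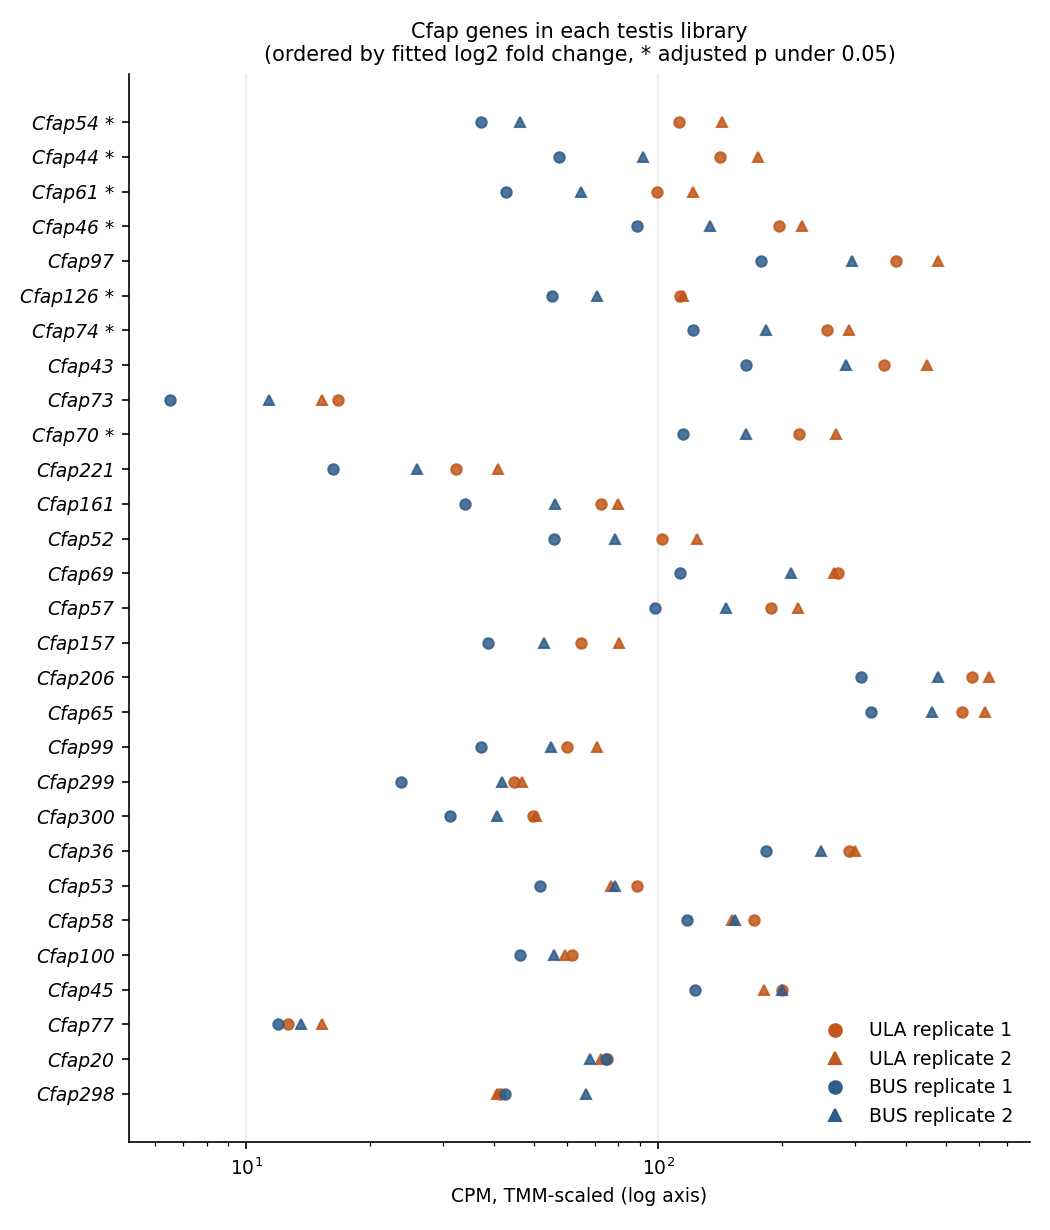
Level of each of the 29 Cfap genes in CPM on a log axis, 1 point per library, ULA in orange and BUS in blue, circles for replicate 1 and triangles for replicate 2. In 23 genes both ULA points lie to the right of both BUS points, and BUS replicate 2 lies to the right of BUS replicate 1 in 28.

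The BUS libraries differed from each other in the same direction as the groups did. BUS replicate 2 was above BUS replicate 1 in 28 of 29 Cfap genes, with a median ratio of 1.502, while 46.9% of all genes tested were above. ULA replicate 2 was above ULA replicate 1 in 21 genes (48.8% of all genes tested), with a median ratio of 1.13. Summed over the 29 genes, the level was 4834 and 5402 CPM with ULA, against 2599 and 3870 CPM with BUS. The groups did not overlap in this sum, and the gap between ULA replicate 1 and BUS replicate 2 was smaller than the gap between the BUS libraries. Without BUS replicate 1, 4 Cfap genes rose (Cfap54, Cfap44, Cfap61 and Cfap126, where 10.3% of all genes rose), 1 fell (12.1% of all) and the median was 0.43. Without BUS replicate 2, 24 rose (22.8% of all) and the median was 1.00. Without ULA replicate 1, Cfap54, Cfap44 and Cfap61 rose (7.29% of all), with a median of 0.77. Without ULA replicate 2, Cfap54 alone rose (2.69% of all, with 2.93% lower), with a median of 0.62. In each of these fits 1 group has a single library, assumed to vary like the other group.

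Other processing choices gave other counts of Cfap genes that rose, each beside the share of all genes that rose in the same fit. The count was 15 with upper-quartile factors, against 18.6% of all genes, and 2 (Cfap54 and Cfap44) with library size alone, against 8.15%. It was 8 with RLE factors (2771 of the 23023 genes), 11 with DESeq2 (10.4%), 7 with limma-voom (10.8%), 11 with no filter beyond 1 count (9.37%) and 8 with at least 10 counts in every library (10.1%). It was 9 in a fit of protein-coding genes alone (9.05%) and 7 when the abundant identifiers Lars2, Gm15564 and ENSMUSG00000119584 were left out (11.9%).

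Cfap54 had the largest change. It encodes a very large protein of the central apparatus, and it lies on chromosome 10 of GRCm38 from 92775619 to 93081618 (ENSMUSG00000020014, minus strand, 67 exons in its longest coding transcript). Its level was 112 and 142 CPM in the ULA libraries, against 37.2 and 46.1 CPM in the BUS libraries. The groups were apart by more than the spread within either, with means of 127 ± 21.2 CPM with ULA and 41.6 ± 6.28 CPM with BUS (SD, n = 2 libraries each). The log2 fold change was 1.61 with a standard error of 0.24 (edgeR adjusted p = 0.00601), a 3.06-fold difference. Cfap54 was the only Cfap gene that passed the test under each of the 16 alternative fits, with adjusted p values up to 0.0251, the value without ULA replicate 2.

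In Chlamydomonas, Cfap54, Cfap46, Cfap74 and Cfap221 form the C1d projection of the central apparatus, a grouping picked here after the values were seen. Cfap46 had 196 and 223 CPM with ULA, against 88.7 and 133 CPM with BUS (log2 fold change 0.92 with a standard error of 0.26, edgeR adjusted p = 0.0310). Cfap74 had 257 and 290 CPM with ULA, against 121 and 183 CPM with BUS (log2 fold change 0.85 with a standard error of 0.26, edgeR adjusted p = 0.0409). Cfap221 had 32.3 and 40.8 CPM with ULA, against 16.3 and 26.0 CPM with BUS, a log2 fold change of 0.79 that did not pass (adjusted p = 0.0726 from edgeR). In each of the 4 genes both ULA libraries were above both BUS libraries. The same held for all 8 central apparatus genes among those matched, for 23 of the 29 Cfap genes and for 37.9% of all genes tested. Cfap46 no longer passed when BUS replicate 1 (edgeR adjusted p = 0.0618), ULA replicate 1 (0.0971) or ULA replicate 2 (0.290) was left out. For Cfap74 these values were 0.115, 0.137 and 0.351.

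Of the 8 central apparatus genes matched, 4 rose and 4 did not pass, where 11.8% of all genes tested rose. Their median log2 fold change was 0.80 (0.52 without BUS replicate 1). The fourth that rose was Cfap70, which sits in the central apparatus in Chlamydomonas and has been placed near the outer dynein arms in mouse cilia. It had 219 and 269 CPM with ULA, against 114 and 163 CPM with BUS (log2 fold change 0.82 with a standard error of 0.25, edgeR adjusted p = 0.0428). Leaving out BUS replicate 1 (0.108), ULA replicate 1 (0.123) or ULA replicate 2 (0.421) ended this call, and of the central apparatus genes Cfap54 alone passed in each of those fits. Cfap65, needed for sperm tail formation, was the most abundant of this group by CPM, with 546 and 619 CPM with ULA, against 327 and 460 CPM with BUS (log2 fold change 0.56, adjusted p = 0.127). Cfap69, whose loss in mouse shortens the sperm tail, had 273 and 266 CPM with ULA, against 113 and 209 CPM with BUS. Its log2 fold change of 0.74 did not pass (adjusted p = 0.0899 from edgeR), and its BUS libraries differed 1.85-fold, the widest such ratio among the Cfap genes. Cfap99 had a log2 fold change of 0.51 (adjusted p = 0.161).

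Among the 2 genes of the radial spokes and the 5 of the inner dynein arms, 1 in each group rose, where 11.8% of all genes tested did. Cfap61, which binds the base of a radial spoke, had 99.4 and 121 CPM with ULA, against 42.6 and 65.0 CPM with BUS (log2 fold change 1.04 with a standard error of 0.26, edgeR adjusted p = 0.0233). Cfap206, which docks another spoke, was the most abundant Cfap gene per length, at 244 CPM per kb of exon with ULA and 159 with BUS. Its libraries held 578 and 634 CPM with ULA, against 311 and 477 CPM with BUS, with a log2 fold change of 0.62 that did not pass (adjusted p = 0.115 from edgeR). Cfap44 and Cfap43 form the tether that holds the head of an inner dynein arm to its doublet. Cfap44 had 141 and 175 CPM with ULA, against 57.2 and 91.7 CPM with BUS (log2 fold change 1.09 with a standard error of 0.28, edgeR adjusted p = 0.0228). Cfap43 had 353 and 448 CPM with ULA, against 164 and 285 CPM with BUS, and its log2 fold change of 0.84 did not pass (adjusted p = 0.0659 from edgeR). The values of the partners lay on either side of the threshold, and their difference was not tested. Without ULA replicate 2 neither Cfap61 (edgeR adjusted p = 0.238) nor Cfap44 (0.211) passed. Cfap57, an inner arm adaptor in Chlamydomonas, had 187 and 218 CPM with ULA, against 98.3 and 146 CPM with BUS, a log2 fold change of 0.73 that did not pass (adjusted p = 0.0607 from edgeR). Cfap73 and Cfap100 form a complex that modifies inner arms in Chlamydomonas. Cfap73 had the lowest count in any library, 124 in BUS replicate 1, with 16.6 and 15.2 CPM with ULA, against 6.52 and 11.3 CPM with BUS (log2 fold change 0.84, adjusted p = 0.0903). Cfap100 had 61.7 and 59.2 CPM with ULA, against 46.0 and 55.8 CPM with BUS (0.25, adjusted p = 0.416). The medians were 0.83 over the 2 spoke genes and 0.84 over the 5 inner arm genes, and without BUS replicate 1 they were 0.53 and 0.47.

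The 7 genes whose products line the doublets or close their inner junction had a median log2 fold change of 0.35. Of these 1 rose, where 11.8% of all genes tested did. This median was 0.58 with an offset for GC content and length, 0.10 without BUS replicate 1 and 0.66 without BUS replicate 2. The gene that rose was Cfap126 (Flattop), a doublet lining protein that is also known from multiciliated airway cells. It had 113 and 115 CPM with ULA, against 55.3 and 71.1 CPM with BUS (log2 fold change 0.85 with a standard error of 0.23, edgeR adjusted p = 0.0267). It did not pass with an offset for GC content and length (adjusted p = 0.0545 from edgeR), without ULA replicate 1 (0.156) or without ULA replicate 2 (0.269). Cfap52, an inner junction protein, had 102 and 124 CPM with ULA, against 55.8 and 78.3 CPM with BUS, and lay just outside the threshold (0.75, adjusted p = 0.0511). Cfap161, which lines the doublets, had a log2 fold change of 0.76 (adjusted p = 0.0663). Cfap45, most abundant of the group by CPM, had 199.96 and 181 CPM with ULA, against 122 and 199.85 CPM with BUS (0.24, adjusted p = 0.510 from edgeR). The groups overlapped, as BUS replicate 2 lay beside ULA replicate 1. Cfap53, another lining protein that also takes part in left-right patterning, had a log2 fold change of 0.35 (adjusted p = 0.320), and Cfap77 of 0.13 (0.749). Cfap20, which closes the inner junction, was nearly level across all libraries, at 74.9 and 72.5 CPM with ULA, against 74.7 and 68.1 CPM with BUS (0.05, standard error 0.21, adjusted p = 0.879). It was also the only Cfap gene that was lower in BUS replicate 2 than in BUS replicate 1.

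None of the 6 genes of dynein arm assembly and of tail building passed (2 at an unadjusted p under 0.05, 1 with DESeq2, 0 with limma-voom). By the same edgeR test 11.8% of all genes tested rose and 15.3% fell. Cfap298, which acts with cytoplasmic factors that assemble dynein arms, was the only Cfap gene with a negative value. It had 41.2 and 40.7 CPM with ULA, against 42.4 and 66.7 CPM with BUS (log2 fold change -0.41 with a standard error of 0.27, edgeR adjusted p = 0.256). Both ULA libraries lay below both BUS libraries by a small margin, as they did in 37.2% of all genes tested, and without BUS replicate 1 it passed as lower (-0.72, adjusted p = 0.0168 from edgeR). Cfap300, another assembly factor, had 49.7 and 50.5 CPM with ULA, against 31.3 and 40.5 CPM with BUS (0.48, adjusted p = 0.150). Cfap97 had the largest value that did not pass, 0.86 (adjusted p = 0.0562 from edgeR), with 377 and 477 CPM with ULA, against 177 and 294 CPM with BUS. Cfap157, a basal body protein that mouse sperm tails need, had a log2 fold change of 0.67 (0.0736), and Cfap58, whose loss also damages the sperm tail, of 0.25 (0.429). Cfap36, a protein related to binders of the small GTPase Arl3, had 289 and 299.96 CPM with ULA, against 182 and 249 CPM with BUS (0.45, adjusted p = 0.178). Cfap299 had a log2 fold change of 0.48 (adjusted p = 0.230).

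**Figure D2:**
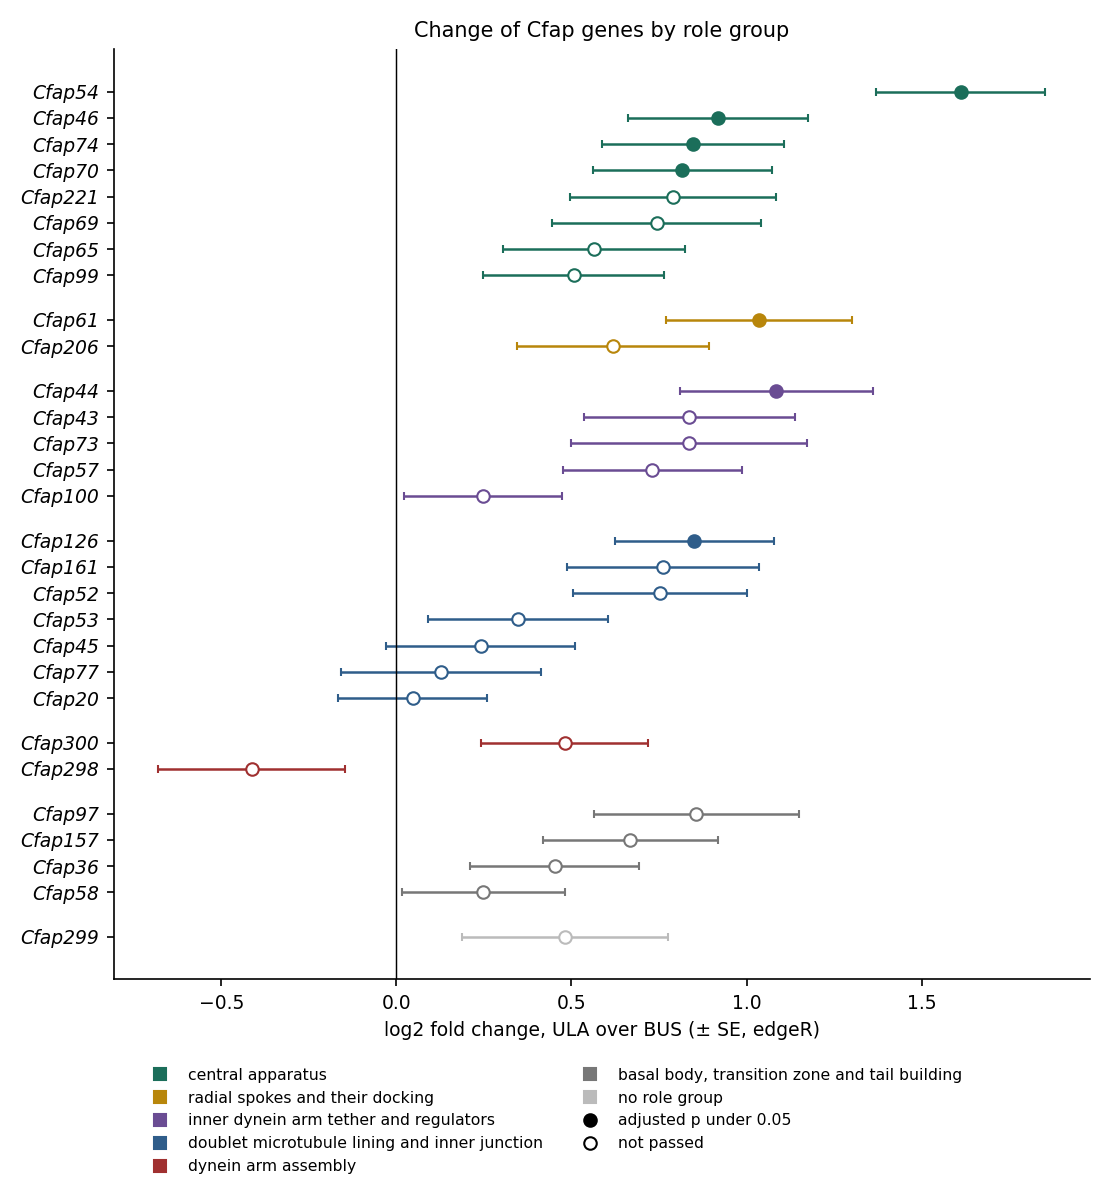
Fitted log2 fold change of ULA over BUS for each Cfap gene, grouped and coloured by role, with bars of 1 standard error from edgeR. Filled points passed an adjusted p of 0.05, of which 4 are central apparatus genes, and Cfap298 is the only point left of 0.

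The change was larger in Cfap genes with longer transcripts. Across the 29 genes, the log2 fold change had a Spearman rho of 0.57 and a Pearson r of 0.55 with the logarithm of transcript length, and a rho of 0.51 with the number of exons. The points share their libraries and genes are not independent replicates, so no p is given. Across 16269 protein-coding genes tested, the rho with length was 0.04. Of the 14 Cfap genes with a transcript above the family's median of 2544 bases, 6 rose and the median log2 fold change was 0.83. Of the other 15, 1 rose (Cfap126) and the median was 0.48. Among all genes tested, 11.8% rose. Every central apparatus gene but Cfap99 was above the family's median length, so length and role were not told apart here. GC content moved with the change in all protein-coding genes (rho -0.31) and in the Cfap genes (rho -0.28). An offset fitted per library on GC content and transcript length left a rho of 0.11 with GC over all protein-coding genes. Their rho with length was 0.08 in that fit, so the offset did not remove the relation with length. Among the Cfap genes the rho with GC became 0.23. In that fit 10 Cfap genes rose (9.63% of all genes did), the median was 0.66 and the rho with length among the Cfap genes was 0.61. Cfap54, Cfap44, Cfap61, Cfap46 and Cfap74 passed again and Cfap126 and Cfap70 did not, while Cfap57, Cfap65, Cfap73, Cfap99 and Cfap157 passed.

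**Figure D3:**
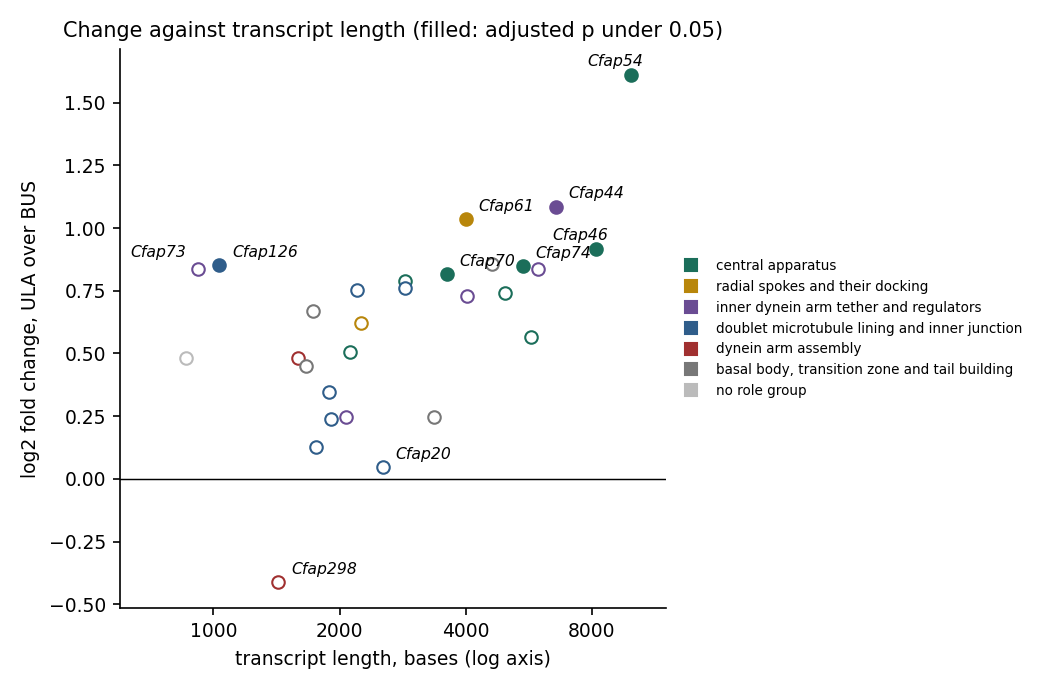
Log2 fold change of ULA over BUS against the length of the longest coding transcript on a log axis, 1 point per Cfap gene, coloured by role and filled where the adjusted p was under 0.05. Of the 7 filled points, 6 are longer than 2544 bases, and Cfap126 is the exception.

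The other genes of the axoneme were measured beside the family, from lists written with earlier results of these data known. Of all genes tested, 11.8% rose in the main result, and the shares in the fits without 1 library are given above. Of 15 axonemal dynein heavy chains, the motors of the axoneme, 13 rose and 2 did not pass, with a median log2 fold change of 1.52. The lowest p among them was that of Dnah3, with 262 and 328 CPM with ULA, against 61.9 and 93.5 CPM with BUS (log2 fold change 1.92, edgeR adjusted p = 0.00555), followed by Dnah14 (1.89). With an offset for GC content and length, 10 heavy chains rose (9.63% of all genes did) and their median was 1.09. With library size alone 9 heavy chains rose (8.15% of all genes did). Of 21 other central apparatus and radial spoke genes, 5 rose and 16 did not pass, with a median of 0.63. Among them was Hydin, a giant central apparatus protein, with 438 and 624 CPM with ULA, against 115 and 212 CPM with BUS (log2 fold change 1.70, adjusted p = 0.0106 from edgeR). Rsph10b, a spoke head gene, had a log2 fold change of 0.98. Of 11 other axonemal dynein chains and docking genes tested, 3 rose (median 0.46), among them Wdr63 (1.08) and Tctex1d1 (1.02). Of 13 dynein arm assembly genes tested, 2 rose, Pih1d2 (0.86) and Daw1 (0.85), with a median of 0.48. The medians were 0.52 for 9 genes of the nexin regulatory complex, of which Fbxl13 rose, and 0.54 for 16 other doublet lining genes, of which Spaca9 rose. None of 22 genes of intraflagellar transport, which carries building blocks along the growing axoneme, passed with edgeR, DESeq2 or limma-voom, while 4 were higher and 1 lower at an unadjusted p under 0.05 (median 0.43), where 20.1% of all genes tested were higher and 23.3% lower. Ift140, the most abundant of them by CPM, had 751 and 884 CPM with ULA, against 449 and 620 CPM with BUS (0.61, edgeR adjusted p = 0.111). Leaving out ULA replicate 2 brought the dynein heavy chains that rose to 8, the other central apparatus and spoke genes to 1 and each further list here to 0. Without ULA replicate 1 the 5 central apparatus and spoke genes became 2 and the 3 dynein chains 2. Without BUS replicate 2 the counts were 13 heavy chains, 14 central apparatus and spoke genes and 10 genes of intraflagellar transport. Without BUS replicate 1 the medians were 0.40 for the other central apparatus and spoke genes, 0.25 for the assembly genes, 0.27 for the nexin complex, 0.30 for the doublet lining genes and 0.25 for intraflagellar transport. The assembly genes that rose became 0 and those of the nexin complex 0 without BUS replicate 1 or ULA replicate 1 as well.

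Where 11.8% of all genes tested rose, 1 of the 11 cilium and spermatid transcription regulators tested did. This was Rfx3, one of the factors that bind the X-box, with 49.8 and 62.2 CPM with ULA, against 25.3 and 30.3 CPM with BUS (log2 fold change 1.01 with a standard error of 0.24, edgeR adjusted p = 0.0195). Rfx2, an RFX factor that mouse spermatids need, had 337 and 417 CPM with ULA, against 232 and 313 CPM with BUS (0.47, adjusted p = 0.184 from edgeR). Foxj1, the regulator of motile cilia, had 58.4 and 55.2 CPM with ULA, against 58.5 and 89.8 CPM with BUS (-0.38, adjusted p = 0.273 from edgeR). Mybl1, a regulator of meiotic genes, had a log2 fold change of 0.73 (adjusted p = 0.0505, just outside the threshold), Crem of 0.69 (0.0583) and Sox30 of 0.08 (0.820). Mcidas, Gmnc and Myb had at most 8 counts in any library and were not tested. Rfx3 did not pass with library size alone (0.77, edgeR adjusted p = 0.0775). Nor did it pass with an offset for GC content and length (0.55, adjusted p = 0.102 from edgeR). Without ULA replicate 2 the log2 fold change of Rfx3 was 0.86. The median of the 11 regulators was 0.46 with all libraries, 0.25 without BUS replicate 1 and 0.69 without BUS replicate 2. Their values ran from -0.64 to 1.01. Both ULA libraries lay above both BUS libraries for 7 of them and below for 2, against 37.9% and 37.2% of all genes tested. With the offset for GC content and length 3 rose and 1 fell, where 9.63% and 11.3% of all genes did.

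The levels of germ cell and somatic cell markers were set beside the Cfap genes. Of all genes tested, 11.8% rose and 15.3% fell. The summed level of 13 spermatocyte markers was 4486 and 4639 CPM with ULA, against 2480 and 3535 CPM with BUS, and 1 of them rose (median log2 fold change 0.50). The sum of 12 round spermatid markers was 1396 and 1463 CPM with ULA, against 862 and 1093 CPM with BUS, and 4 rose (median 0.55). The sum of 14 condensing spermatid markers was 9893 and 15025 CPM with ULA, against 3756 and 5237 CPM with BUS, and 13 rose (median 1.35). With an offset for GC content and length, the medians of these 3 lists were 0.18, 0.44 and 1.26 in the same order. In that fit 0, 2 and 13 of their markers rose, where 9.63% of all genes did. All 39 of these spermatocyte and spermatid markers were higher in BUS replicate 2 than in BUS replicate 1, as were 28 of the 29 Cfap genes. Spermatogonia markers mostly went the other way, as 4 of 11 tested fell and 7 did not pass, with log2 fold changes from -1.61 to 0.35. Their summed levels were 226 and 170 CPM with ULA, against 444 and 375 CPM with BUS. Dmrt1 was on both this list and the Sertoli cell list. Sertoli cell markers (15 of 16 fell) had sums of 2432 and 1523 CPM with ULA, against 7617 and 3890 CPM with BUS. All 10 Leydig cell markers fell, with sums of 1509 and 868 CPM with ULA, against 9191 and 6439 CPM with BUS. Macrophage markers stood apart in BUS replicate 1, with sums of 142 and 102 CPM with ULA, against 421 and 108 CPM with BUS, and all 8 were lower in BUS replicate 2 than in BUS replicate 1. Their median was -1.04, and 0.20 without BUS replicate 1. The spermatocyte median was 0.28 and the Sertoli median -0.90 without BUS replicate 1, against -1.52 with all libraries for Sertoli cells. Without ULA replicate 2, 1 condensing spermatid marker rose, 0 round spermatid and 0 spermatocyte markers rose, and 3 Sertoli, 8 Leydig and 0 spermatogonia markers fell. The round spermatid and spermatocyte counts were also 0 without ULA replicate 1, were 2 and 0 without BUS replicate 1, and were 8 and 10 without BUS replicate 2, where 7 spermatogonia markers fell. The part of these shifts in the Cfap values was not tested.

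Within each library the Cfap sum was also set against the sums of other lists. Per CPM of spermatocyte markers it was 1.08 and 1.16 with ULA, against 1.05 and 1.09 with BUS. Per CPM of round spermatid markers it was 3.46 and 3.69 with ULA, against 3.02 and 3.54 with BUS. Per CPM of the other central apparatus and spoke genes it was 1.33 and 1.22 with ULA, against 1.27 and 1.15 with BUS. In these 3 ratios the groups overlapped. Per CPM of genes of intraflagellar transport it was 1.52 and 1.57 with ULA, against 1.25 and 1.43 with BUS, the 1 ratio of 6 in which both ULA libraries lay above both BUS libraries. Per CPM of condensing spermatid markers it was 0.489 and 0.360 with ULA, against 0.692 and 0.739 with BUS. Per CPM of dynein heavy chains it was 0.451 and 0.366 with ULA, against 0.909 and 0.958 with BUS, and in these 2 ratios both ULA libraries lay below both BUS libraries. The heavy chain Dnah8 held 66.2% and 66.6% of the dynein sum with ULA, against 49.7% and 48.5% with BUS. Without it, a choice made after seeing the data, the ratio was 1.34 and 1.10 with ULA, against 1.81 and 1.86 with BUS. These ratios do not depend on the scaling of the libraries, but they were taken without the offset for GC content and length. They were given no test, since the smallest two-sided exact permutation p for 2 libraries against 2 is 0.333.

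**Figure D4:**
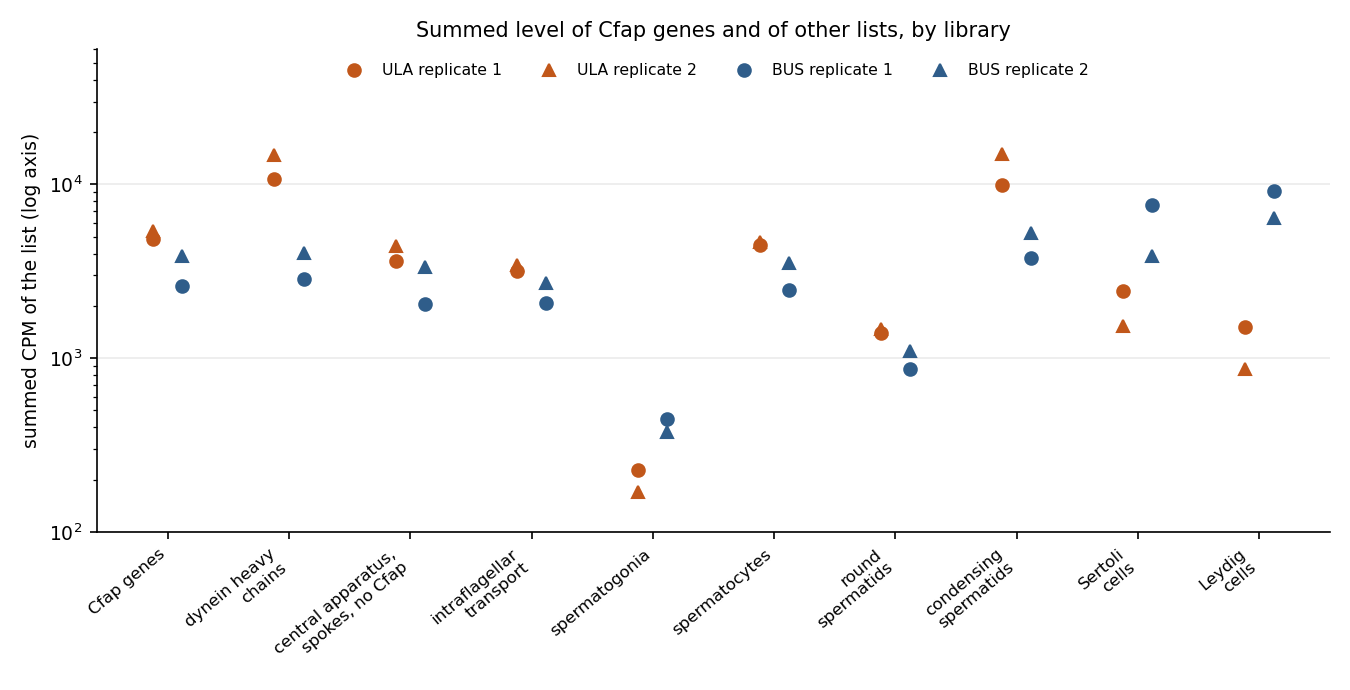
Summed CPM of the Cfap genes and of 9 other lists on a log axis, 1 point per library, ULA in orange left of BUS in blue, circles for replicate 1 and triangles for replicate 2. The Cfap sum was 4834 and 5402 CPM with ULA, against 2599 and 3870 CPM with BUS. Every other list shown follows the same order of libraries, except spermatogonia, Sertoli cells and Leydig cells, whose sums run the other way.

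Ciliated ducts next to the testis were looked for with 12 markers of epididymis and efferent ducts. The epididymal genes Lcn5, Lcn8, Lcn9, Adam7 and Crisp1 had at most 6 counts in any library, and Adam7 had none. Pax8, a marker of efferent ducts, had 3 and 1 counts with ULA, against 1 and 19 with BUS. Rnase10, an epididymal gene, rose, with 71 and 59 counts with ULA, against 22 and 27 with BUS (log2 fold change 1.84, adjusted p = 0.0130 from edgeR). Of the list's other members tested, Sult1e1 and Esr1, which Leydig cells also express, fell and 3 did not pass. Without ULA replicate 2 neither Rnase10 (1.80, edgeR adjusted p = 0.0723) nor Esr1 (-1.16, adjusted p = 0.161) passed.

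Whether the reads were counted by strand is not stated, so reads shared by overlapping genes cannot be told apart here. In GENCODE M21, 18 of the 29 Cfap genes overlap another annotated gene, 31 in all, of which 20 were tested, 4 were higher, 2 were lower and 14 did not pass. Of the 7 Cfap genes that rose, Cfap54, Cfap44 and Cfap126 overlap no other gene. Cfap70 holds the antisense gene 7330404K18Rik, with 41 and 41 counts with ULA, against 18 and 26 with BUS (log2 fold change 1.35, adjusted p = 0.0449 from edgeR), a small number beside the 2176 to 3628 counts of Cfap70. Cfap61 overlaps Crnkl1 (-0.02, adjusted p = 0.954) and Cfap74 overlaps 5830444B04Rik, which rose on 26 and 34 counts with ULA, against 14 and 7 with BUS. Cfap46 holds the pseudogene Gm4459, with 13 to 34 counts.

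**Figure D5:**
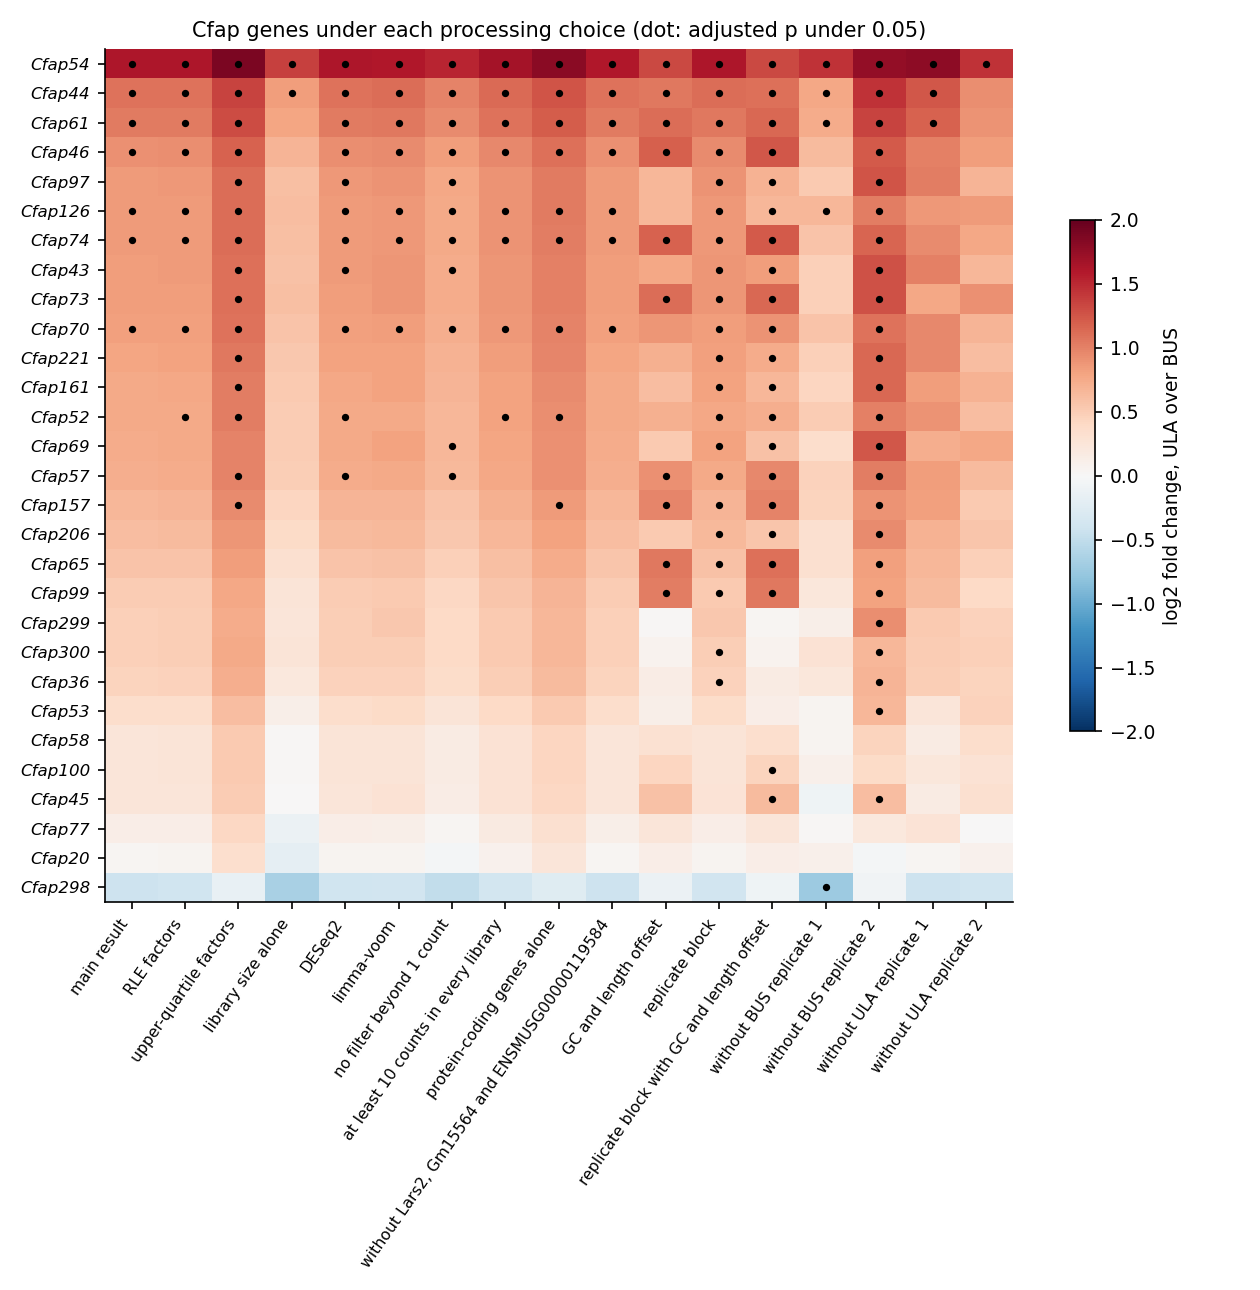
Log2 fold change of ULA over BUS for each Cfap gene (rows) in the main result and under 16 other processing choices (columns), red for higher and blue for lower with ULA, with a dot where the adjusted p was under 0.05. Cfap54 has a dot in every column, and the number of dots per column runs from 1 without ULA replicate 2 to 24 without BUS replicate 2.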

How the data were processed

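The deposited values are raw read counts for each Ensembl identifier in 4 libraries, which the authors had not normalized. The study's methods name Fastp, STAR, GRCm38 and FeatureCounts, the submitters' processing notes name RSEM 1.3.1, and which made the counts was not settled. The 4 count columns were matched to libraries by group and number. The names of both ULA columns end in a letter A that the labels and the methods do not explain. Symbols, coordinates and lengths come from GENCODE M21 (52081 of 57010 identifiers matched).

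The filterByExpr rule (at least 10 counts, total of at least 15) chose the genes, TMM set the scale and the groups were compared with edgeR 4.0.16 (quasi-likelihood, R 4.3.3) without a block, with Benjamini-Hochberg adjustment over 23023 genes (biological coefficient of variation 0.242, 2 residual degrees of freedom). Standard errors derive from the F statistic. Adjusted p values given with a log2 fold change are edgeR's. No p was adjusted over a list, and no list was tested as a set. Alternatives were other scalings and filters, DESeq2 1.42.0, limma-voom 3.58.1, protein-coding genes alone, leaving out 3 abundant identifiers, an offset for GC content and length (mgcv, known for 22444 genes), a replicate block and leaving out each library. Every Cfap gene is named, with library values for those that passed and the 2 most abundant of each role group. Of other lists up to 2 genes by p are named, and a few more for comparison. The members and lists were chosen with earlier results of these data known. The steps were tested on simulated counts in which few genes changed, as many up as down. That setting had no shift in composition, so it does not bear on the choice of scaling.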

Additional observations from a re-analysis of the deposited data

How the results depend on the processing

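The number of Cfap genes that rose (7) depended on the processing more than the direction did. It was 15 with upper-quartile factors (median log2 fold change 1.00), 2 with library size alone, 11 with DESeq2, 11 with no filter beyond 1 count and 17 at an unadjusted p with a fold over 1.5. Upper-quartile and library-size scaling moved the median of all genes tested to 0.31 and -0.20, and the Cfap median stood 0.69 above it in both, against 0.71 in the main result. This difference was 0.37 with no filter beyond 1 count, 0.40 without BUS replicate 1 and 0.94 with protein-coding genes alone. Leaving out 1 library gave 1 to 24 higher Cfap genes, 0 to 1 lower, and medians of 0.43 to 1.00. The value of Cfap20 turned negative with library size alone (-0.17), with no filter (-0.044) and without BUS replicate 2 (-0.034, and up to 0.096 without the others), that of Cfap77 with library size alone (-0.11) and that of Cfap45 without BUS replicate 1 (-0.088, and up to 0.62 without BUS replicate 2). None of these values that turned negative passed the test. Of 464 comparisons of a gene with an alternative, 368 kept direction and call, 71 gained and 20 lost the call and 5 turned. With the replicate block 21 Cfap genes rose, also with the GC and length offset (21), while 22.4% and 22.6% of all genes tested rose. The deviations of same-numbered libraries correlated at 0.33 over all genes, but the labels do not say that libraries with 1 number share an animal, litter or day, so the samples share only a number as far as is known. The precision is limited by 2 libraries per group.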

Other observations

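Some genes annotated within the span of a Cfap gene had few reads in the BUS libraries. E030032P16Rik, on the same strand inside Cfap299, had 11 and 26 counts with ULA, against 0 and 1 with BUS (adjusted p = 0.00963 from edgeR), while Cfap299 itself did not pass. Gm45693, inside Cfap97, had 11 and 10 counts with ULA, against 2 and 4 with BUS (log2 fold change 2.20, adjusted p = 0.0319). Gm15634, a sense intronic gene also inside Cfap97, had 11 and 16 counts with ULA, against 15 and 24 with BUS (-0.06, adjusted p = 0.939). Gm17973, an antisense pseudogene inside Cfap221, had 6 and 4 counts with ULA and 0 in both BUS libraries, too few to be tested. These genes were singled out after their values were seen.

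Gsto1, a glutathione transferase gene on the other strand inside Cfap43, fell, with 63 and 54 counts with ULA, against 256 and 141 with BUS (log2 fold change -1.33, adjusted p = 0.0367), and its neighbour Gsto2 had a log2 fold change of 0.56 (adjusted p = 0.119) beside 0.84 for Cfap43. Gm13394, a processed pseudogene inside Cfap77, fell, with 994 and 547 counts with ULA, against 3573 and 2096 with BUS (-1.49, adjusted p = 0.0135), while Cfap77 itself had 209 and 192 counts with ULA, against 227 and 275 with BUS.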
